A study of Homo sapiens with 16 samples.

Results

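Intergenic long non-coding RNAs were followed through a TGF-beta time course of A549 cells. They were taken as the rows of the deposited expression tables whose gene name is LINC followed by digits. They were selected on measured values, namely a level of at least 1 TPM (a level scaled within each library and per transcript length) in at least 2 of the 16 libraries. Of 623 LINC rows among 57773 genes, 102 passed and are the members described here. The other 521 comprised 192 listed at 0 in all 16 libraries, 306 above 0 somewhere but under 1 TPM everywhere, and 23 at 1 TPM or more in exactly 1 library. Just inside the threshold, the second highest library read 1.0 TPM for LINC00483, 1.02 for LINC00640 and 1.03 for LINC00304, and just outside it read 0.95 for LINC00271 and 0.94 for LINC00035 and LINC00967.

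A549 is an established human lung adenocarcinoma line of alveolar epithelial type. The series profiled RNA after 0, 6, 12, 24, 36, 48, 72 and 96 h in cultures driven into epithelial to mesenchymal transition by TGF-beta, with 2 libraries (replicates 1 and 2) at each time. All groups are the same unmodified line and differ, as far as the labels say, in the hours of TGF-beta alone; no dose is given. Untreated cultures at 6 h or later are not analysed here, so TGF-beta and time in culture cannot be told apart, and every comparison with 0 h uses the same 2 libraries. The labels do not say whether replicates were separate cultures, so p-values measure the spread between these libraries, which may be technical. Listed markers fitted the label of the line in part. KRT18 and KRT8, keratins of simple epithelium, averaged 1519 and 1235 TPM. KRT19, CDH1 and EPCAM, the other epithelial genes listed, averaged 18.3, 5.51 and 2.62 TPM. CDH1 read 14.51 and 27.56 TPM at 0 h, then 0.44 and 3.24 TPM at 96 h. The mesenchymal genes VIM, FN1 and CDH2 averaged 844.5, 513.2 and 64.0 TPM. The leukocyte gene PTPRC averaged 0.075 TPM, the endothelial gene VWF 0.0131 TPM and the globin gene HBB 0.0281 TPM. CD14, also listed for leukocytes, averaged 0.404 TPM and read 1.05 and 1.82 TPM at 0 h. The listed fibroblast genes PDGFRA, LUM and MFAP4 averaged 0.361, 0.738 and 1.04 TPM. LUM read 0.68 and 0.14 TPM at 0 h, then 1.86 and 1.05 TPM at 96 h. CD68 and ESAM, listed as leukocyte and endothelial markers, averaged 5.55 and 3.19 TPM, and ESAM read 0.55 and 0.37 TPM at 0 h, then 6.32 and 7.21 TPM at 36 h.

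A long non-coding RNA is transcribed and usually spliced like a messenger RNA but is not known to be translated. Some act at the gene next to them and others act as binding platforms for proteins or microRNAs in nucleus or cytoplasm. TGF-beta binds receptor kinases that activate SMAD2 and SMAD3, which with SMAD4 enter the nucleus and bind DNA together with factors such as AP-1 and FOXA. In epithelial cells the pathway switches off junction genes and switches on matrix and cytoskeletal genes, and several LINC RNAs have been studied as parts of that programme.

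The LINC symbol did not mean intergenic and non-coding for every member. By Ensembl identifier, 94 of the 102 members matched the GENCODE v29 annotation (GRCh38), which is newer than the symbols in the tables, and 8 did not. Of the matched members, 61 were classed as lincRNA, 7 as antisense and 9 as protein coding. A span overlapping a coding gene was found for 21 members, and 15 shared exon bases with one. No overlap and no coding class remained for 65 members. The labels do not say whether counting used the strand, so reads of an overlapping or antisense gene cannot be told apart from those of the member. The name has since changed for 32 members. Sequence was shared as well: in 4 members (LINC01123, LINC01106, LINC01001 and LINC00843) over 50% of the words of 50 exon bases also occur in other genes of the tables, and in 57 under 5%.

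The members spanned a wide range of levels, as the plot of all members by mean TPM shows. A mean of at least 10 TPM was reached by 18 members, 61 averaged between 1 and 10 TPM, and 23 averaged under 1 TPM. The median of the members' means was 2.48 TPM, against 6.36 TPM over the 16967 genes of any name that passed the same threshold. In all 16 libraries 45 members stood at 1 TPM or more, whereas 14 passed through only 2 to 4 libraries. The tables hold TPM and no counts, so the number of reads behind a low value is unknown.

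**Figure D1:**
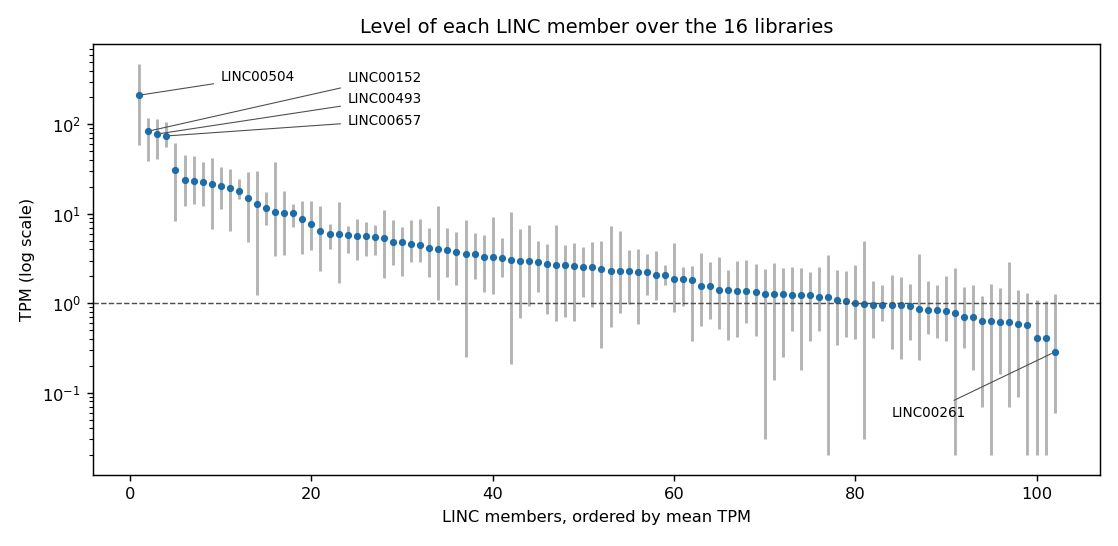
Each point is the mean TPM (log scale) of 1 of the 102 members over the 16 libraries, ordered by level, and each grey line runs from its lowest to its highest library (values under 0.02 drawn at 0.02). The dashed line marks 1 TPM, and LINC00504 stands alone at a mean of 212 TPM.

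LINC00504 (chr4:14470465-14888169, minus strand, a lincRNA with no coding gene within its span) was the most abundant member. Of its words of 50 exon bases, 21.4% also occur in other genes of the tables. Its level was 208.08 and 258.88 TPM in replicates 1 and 2 at 0 h, 58.38 and 104.84 TPM at 6 h, 478.71 and 160.69 TPM at 12 h, then 276.13 and 186.24 TPM at 24 h. Later it read 293.09 and 193.78 TPM at 36 h, 68.29 and 199.33 TPM at 48 h, 257.87 and 233.83 TPM at 72 h, then 354.28 and 59.54 TPM at 96 h. The replicates of 12, 48 and 96 h were far apart, so no time differed from 0 h beyond the spread between libraries (limma adjusted p from 0.37 at 48 h to 1 at 12 h).

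Its highest and lowest libraries were also extreme in the share of all TPM held by 6 abundant small RNAs, among them 7SL and 7SK. That share was 42.5% in 12 h replicate 1, where LINC00504 peaked, and 60.5%, 64.1% and 62.1% in 6 h replicate 1, 48 h replicate 1 and 96 h replicate 2, where it was lowest. The summed level of the 102 members was also lowest and highest in these libraries, from 542.5 TPM in 6 h replicate 1 to 1402 TPM in 12 h replicate 1. LINC00504 made up 10.1% to 34.1% of it. Other libraries did not all follow. In 48 h replicate 2 the share was 60.2%, with LINC00504 at 199.33 TPM and a sum of 879.6 TPM. In 0 h replicate 1 the share was 51.8%, with LINC00504 at 208.08 TPM and a sum of 876.6 TPM. Between 57 and 90 members stood at 1 TPM or more in a library. After scaling the libraries to each other by a trimmed mean (TMM, which damps a few very abundant RNAs), LINC00504 still ran from 78.1 to 309.9 TPM. The part of the small RNA share in these levels was not tested further.

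Next in abundance came LINC00152, LINC00493 and LINC00657 with means of 83.9, 78.1 and 74.2 TPM. LINC00657 is NORAD, which holds Pumilio proteins and is known for keeping chromosomes stable. It ranged from 55.96 to 105.48 TPM with a median of 68.3 TPM, and was at 94.57 and 91.62 TPM at 0 h against 72.51 and 70.69 TPM at 24 h. LINC00473, a CREB-responsive RNA known from LKB1-deficient lung cancer, averaged 31.1 TPM. LINC00662, LINC00969, LINC00116, LINC00842 and LINC00511 completed the 10 most abundant members at means from 20.3 to 24.0 TPM.

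Several of the abundant members are now known to encode small proteins. LINC00493 is SMIM26 and LINC00116 is MTLN, both mitochondrial microproteins, and LINC00998 is SMIM30, a small membrane protein. SMIM26 (LINC00493) ranged from 41.36 to 113.94 TPM, MTLN (LINC00116) from 12.34 to 38.01 TPM and SMIM30 (LINC00998) from 14.49 to 24.58 TPM. SMIM30 was the steadiest of these, at 16.46 and 16.21 TPM at 0 h, then 19.3 and 16.79 TPM at 96 h. None of the 3 was called at any time with limma. LINC00961 and LINC00948, which hold the microproteins SPAAR and myoregulin, were no members, with second highest libraries of 0.07 and 0.21 TPM.

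How many members changed was asked with limma, a linear model with shared variance across genes, on log2(TPM + 1) over all 16967 genes, and a gene was called at a Benjamini-Hochberg adjusted p below 0.05. Differences are given on this log2 scale, on which genes near 1 TPM show less than their full change. In bulk RNA, fewer cells making a transcript and less of it per cell cannot be told apart. The replicate number marked a shared deviation at every pair of times, so counts from the fit with the replicate as a block, and from TMM-scaled values, are given beside each other. At 6 h no member was called by limma, and of all genes 0.0177% were. At an unadjusted p under 0.05 stood 20 members (19.6%) and 13.6% of genes. TMM scaling called LINC01137 (0.218% of genes), and scaling with the block called LINC01137 and LINC00941 higher and LINC00473 lower (2.3%). At 12 h no member was called (0.383% of genes), with 7 (6.86%) at an unadjusted p under 0.05 against 8.29% of genes. The block called LINC00941 and LINC01137 higher (2.61%), TMM scaling called LINC00941 (1.16%), and both together added LINC01106 as lower (5.06%).

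At 24 h again no member was called (1.21% of genes), and 10 members (9.8%) and 10.8% of genes were at an unadjusted p under 0.05. With the block LINC00941 and LINC00704 were higher and LINC00261 and LINC01106 lower (3.79% of genes). TMM scaling kept 3 of these 4, without LINC01106 (2.74%), and both together called 5 members higher and 2 lower (7.07%). At 36 h LINC00941 was called higher and LINC01106 and LINC00261 lower, 3 of 102 members where 2.3% of genes were called. Without replicate 1 of 0 or of 36 h LINC01106 alone was called (0.943% and 0.866% of genes), and without replicate 2 of either time no member was. The block called 3 higher and 3 lower (5.63%), TMM scaling 3 higher and 2 lower (4.11%), and both together 4 higher and 3 lower (9.31%). The members' count is near the background in each of these fits.

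At 48 h LINC00704 was called higher, and LINC00857, LINC01123, LINC01106 and LINC00261 lower, 5 of 102 members where 7.6% of genes were called. None was without either 0 h library or 48 h replicate 1. Without 48 h replicate 2 again 5 members were called, all lower (6.87% of genes), but only LINC01106 and LINC00261 were among the former 5, and LINC00467, LINC00472 and LINC00473 were the others. The block gave 3 higher and 6 lower (16.6%). TMM scaling turned the balance to 4 higher (LINC00152, LINC00704, LINC00862 and LINC00941) and 2 lower (4.9%), and with the block it was 7 higher and 5 lower (12% of genes). The median difference of all genes moved under this scaling from -0.46 to -0.04 at 48 h and from -0.37 to 0.03 at 6 h, so directions at these times are relative to that shift. The members' median moved with it, from -0.33 to -0.01 at 48 h and from -0.50 to -0.16 at 6 h. At 36 h the members' median was -0.08 against -0.16 for all genes.

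At 72 h LINC00704 was higher and LINC01106 and LINC00261 lower (2.58% of genes called), and leaving out any 1 library of 0 or 72 h left no member called. With the block 3 were higher and 4 lower (6.3%), with TMM scaling 3 higher and 1 lower (3.72%), and with both 5 higher and 4 lower (9.73%). At 96 h no member was called by limma (1.79% of genes), with 11 members (10.8%) and 13.4% of genes at an unadjusted p under 0.05. The block called LINC00941 and LINC00704 higher and LINC00467, LINC00261 and LINC00632 lower (4.82%), TMM scaling called LINC00704 (2.62%), and both together called 3 higher and 2 lower (7.61%). Without 96 h replicate 2, LINC00622, LINC00704 and LINC00941 were called higher at 96 h, 3 of 102 members where 2.56% of genes were called. LINC00622 passed the threshold through libraries of 36, 72 and 96 h alone, so its call there follows in part from how members were taken. LINC00704 reached 1 TPM before 12 h in 0 h replicate 1 alone, so the same holds for its calls. The members' median difference at 96 h was -0.22, against -0.20 over all genes.

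A moderated F test of all 7 differences from 0 h called no member with limma (1.72% of genes), with 11 members (10.8%) and 14% of genes at an unadjusted p under 0.05. Without 96 h replicate 1 it called 5 members (LINC00152, LINC00704, LINC00705, LINC00842 and LINC00941) and 3.62% of genes, and without 96 h replicate 2 LINC00704 and 2.74% of genes. The block brought 3 members (LINC00704, LINC00941 and LINC01106) at 6.13% of genes, TMM scaling LINC00704 at 3.29%, and both together 7 members at 11.5%. The middle of the course (24 and 36 h) against its start (6 and 12 h) called no member with limma (0.177% of genes), and 4 members (3.92%) and 7.51% of genes were at an unadjusted p under 0.05. With scaling and block together LINC00704 and LINC00941 were higher there (3.65%). The late times (72 and 96 h) against the middle called none with limma (0.1% of genes), and 4 members (3.92%) and 6.63% of genes were at an unadjusted p under 0.05. Without 96 h replicate 1, LINC00152 was called lower there (0.872% of genes).

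Counting libraries alone, 2 members were higher and 70 lower in both 6 h libraries than in both 0 h libraries, where 67.5% of all genes did not overlap in either direction. At 24 h it was 16 higher and 33 lower (52.2% of genes), and at 96 h 11 higher and 21 lower (38.6%). The members' shares of 70.6%, 48.0% and 31.4% lie near or below those of all genes. The heat map of named members gives the change in each library.

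**Figure D2:**
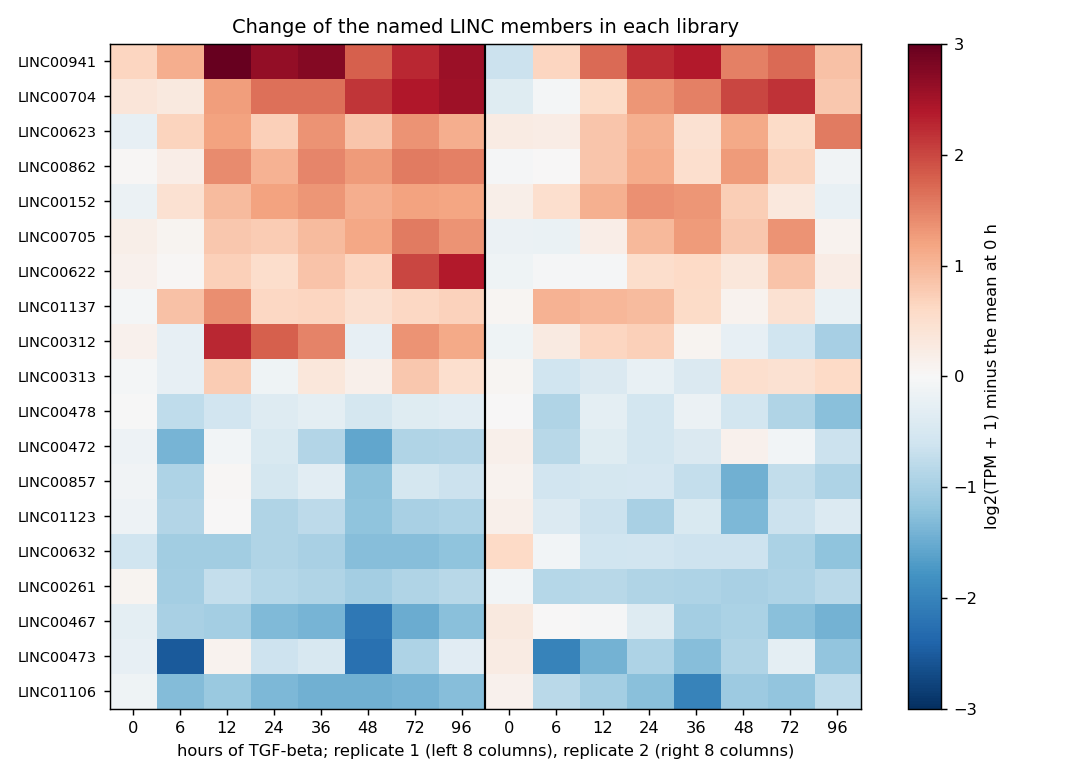
Each cell is the log2(TPM + 1) of 1 library minus the mean at 0 h for 19 named members, replicate 1 on the left and replicate 2 on the right. LINC00941 and LINC00704 are red and LINC01106 and LINC00261 blue from 12 h on in both replicates, while 96 h replicate 2 is paler for LINC00941 and LINC00704.

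Of the members that were higher after TGF-beta, the results turn on LINC00941, LINC00704 and LINC00152. LINC00941 has been studied in colorectal and other tumours, where it was tied to SMAD4. LINC00704 is MANCR, named for its association with mitosis, and LINC00152 is CYTOR, the cytoskeleton regulator RNA. Their promoters are shown from RefSeq (GRCh38.p14), 250 bases before to 50 after the start, 5′ to 3′ on the gene's strand, because they were higher together. Capitals mark matches to 4 motifs searched on both strands. These are the SMAD element CAGAC, read GTCTG on the other strand, the AP-1 site TGANTCA, the E-box CAGGTG, read CACCTG on the other strand and bound by ZEB1 and SNAI factors, and the FOXA motif TGTTTAC, read GTAAACA on the other strand.
LINC00941, chr12:30795431-30795730, plus: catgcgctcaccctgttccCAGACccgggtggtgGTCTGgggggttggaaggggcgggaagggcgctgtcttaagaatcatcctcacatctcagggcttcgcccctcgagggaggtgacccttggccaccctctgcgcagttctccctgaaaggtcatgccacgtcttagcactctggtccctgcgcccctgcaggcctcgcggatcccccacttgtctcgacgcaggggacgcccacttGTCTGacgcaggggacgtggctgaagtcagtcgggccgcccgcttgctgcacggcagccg
LINC00704, chr10:4678021-4678320, minus: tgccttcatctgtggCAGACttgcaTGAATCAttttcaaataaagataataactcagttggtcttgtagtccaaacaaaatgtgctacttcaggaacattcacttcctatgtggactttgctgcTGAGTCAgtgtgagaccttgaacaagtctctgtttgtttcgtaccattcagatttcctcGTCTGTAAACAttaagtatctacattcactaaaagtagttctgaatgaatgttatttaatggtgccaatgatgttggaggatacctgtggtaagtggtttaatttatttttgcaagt
LINC00152, chr2:87455177-87455476, plus: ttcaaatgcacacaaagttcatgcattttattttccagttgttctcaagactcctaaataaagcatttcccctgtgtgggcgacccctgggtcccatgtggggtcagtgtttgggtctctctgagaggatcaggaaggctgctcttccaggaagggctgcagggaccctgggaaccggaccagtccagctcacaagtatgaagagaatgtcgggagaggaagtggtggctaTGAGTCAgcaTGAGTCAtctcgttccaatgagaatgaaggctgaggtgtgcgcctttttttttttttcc
LINC00941 holds 3 SMAD elements, at -231, -216 and -10 from the start. LINC00704 holds 2 (-235 and -67), 2 AP-1 sites (-225 and -126) and a FOXA motif at -63 that overlaps the second SMAD element. LINC00152 holds 2 AP-1 sites, at -19 and -9. Of 35116 RefSeq promoters of this length, 45.3% hold a SMAD element, 7.71% an AP-1 site, 20.6% the E-box and 3.42% the FOXA motif. Of the 70 members with a promoter entry, 28, 9, 19 and 6 do. A match says only that the letters are there.

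LINC00941 (chr12:30755167-30802602, plus strand) stood at 4.47 and 1.24 TPM at 0 h, then 6.51 and 4.44 TPM at 6 h in replicates 1 and 2. It then read 30.29 and 10.32 TPM at 12 h, 20.73 and 15.39 TPM at 24 h, then 22.76 and 17.24 TPM at 36 h. The later values were 11.11 and 8.92 TPM at 48 h, 15.87 and 10.45 TPM at 72 h, then 19.77 and 5.39 TPM at 96 h. All 12 libraries from 12 h on lay above both 0 h libraries, and replicate 1 was above replicate 2 at all 8 times. The rise was called at 36 h, with a log2 difference of 2.57 ± 0.58 (SE, n = 2 libraries a time, limma adjusted p = 0.0392). At 12 and 24 h the difference was 2.43 at each (limma adjusted p = 0.106 and 0.0713), and with the replicate block the adjusted p was 0.00405 and 0.00204. At 96 h the difference was 1.72 (adjusted p = 0.192 with limma, 0.0134 with the block). Leaving out any 1 library of 0 or 36 h ended the call at 36 h (limma adjusted p from 0.0509 without 0 h replicate 1 to 0.464 without 0 h replicate 2), with differences from 1.93 to 3.22. Over all alternatives the adjusted p ran from 8.56e-05 to 0.464.

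LINC00704 (chr10:4650185-4678154, minus strand) climbed more slowly. It read 1.07 and 0.25 TPM at 0 h, 0.98 and 0.55 TPM at 6 h, 2.81 and 1.41 TPM at 12 h, then 4.03 and 3.05 TPM at 24 h. From there it was 4.06 and 3.58 TPM at 36 h, 6.11 and 5.46 TPM at 48 h, 7.57 and 6.22 TPM at 72 h, then 8.45 and 1.8 TPM at 96 h. All 12 libraries from 12 h on were above both of 0 h, and 96 h replicate 2 stood far under its partner. Of the libraries of 0 and 6 h, only 0 h replicate 1 reached 1 TPM. LINC00704 thus passed the threshold through later libraries, and its rise follows in part from how members were taken. The rise was called at 48 h (log2 difference 2.07 ± 0.47, SE, limma adjusted p = 0.0242) and 72 h (2.29 ± 0.47, 0.0222). With the block it was also called at 24, 36 and 96 h (limma adjusted p = 0.0331, 0.0186 and 0.0153). Leaving out any 1 library of the groups compared ended both calls, with adjusted p from 0.0539 to 0.24 at 48 h (lowest without 48 h replicate 2, highest without 0 h replicate 2) and from 0.0511 to 0.294 at 72 h (lowest without 0 h replicate 1, highest without 0 h replicate 2). Without 96 h replicate 2 the difference at 96 h was 2.55 and called (limma adjusted p = 0.00594), and without 96 h replicate 1 it was 0.80.

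The locus of LINC00704 holds a second member on the other strand, LINC00705 (chr10:4655427-4662419, plus strand). Of its 50-base words, 10.1% also occur in LINC00704, so part of the reads may be counted for either. LINC00705 read 0.48 and 0.15 TPM at 0 h, 1.21 and 1.54 TPM at 24 h, 1.9 and 1.28 TPM at 48 h, 2.82 and 2.31 TPM at 72 h, then 2.34 and 0.4 TPM at 96 h. Both libraries were above both of 0 h at 24 to 72 h, and they overlapped 0 h at 96 h. LINC00705 passed the threshold through libraries of 12 h and later alone, so its rise follows in part from how members were taken. The difference at 72 h was 1.45 (limma adjusted p = 0.0664, and 0.0222 with the block).

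LINC00152 (chr2:87454781-87636740, plus strand) was the abundant member of this group. It stood at 40.4 and 51.2 TPM at 0 h, 63.14 and 64.85 TPM at 6 h, 88.2 and 97.11 TPM at 12 h, then 105.63 and 118.53 TPM at 24 h. At 36 h it read 115.69 and 115.02 TPM, at 48 h 98.54 and 76.04 TPM, at 72 h 107.02 and 57.31 TPM and at 96 h 105.18 and 38.76 TPM. Of the 14 later libraries 13 were above both 0 h libraries, and 96 h replicate 2 was below them. The replicates were close up to 36 h and apart from 48 h on. The largest difference, 1.32 ± 0.39 (SE) at 36 h, missed the threshold (limma adjusted p = 0.109) and passed it with the block (0.0456) and with TMM scaling (0.0467). Of the 50-base words of LINC00152, 19.3% also occur in other genes of the tables, most of them in its near copy MIR4435-1HG. That gene read 28.18 and 32.3 TPM at 0 h, then 86.33 and 83.61 TPM at 36 h, so reads could be split between the loci.

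**Figure D3:**
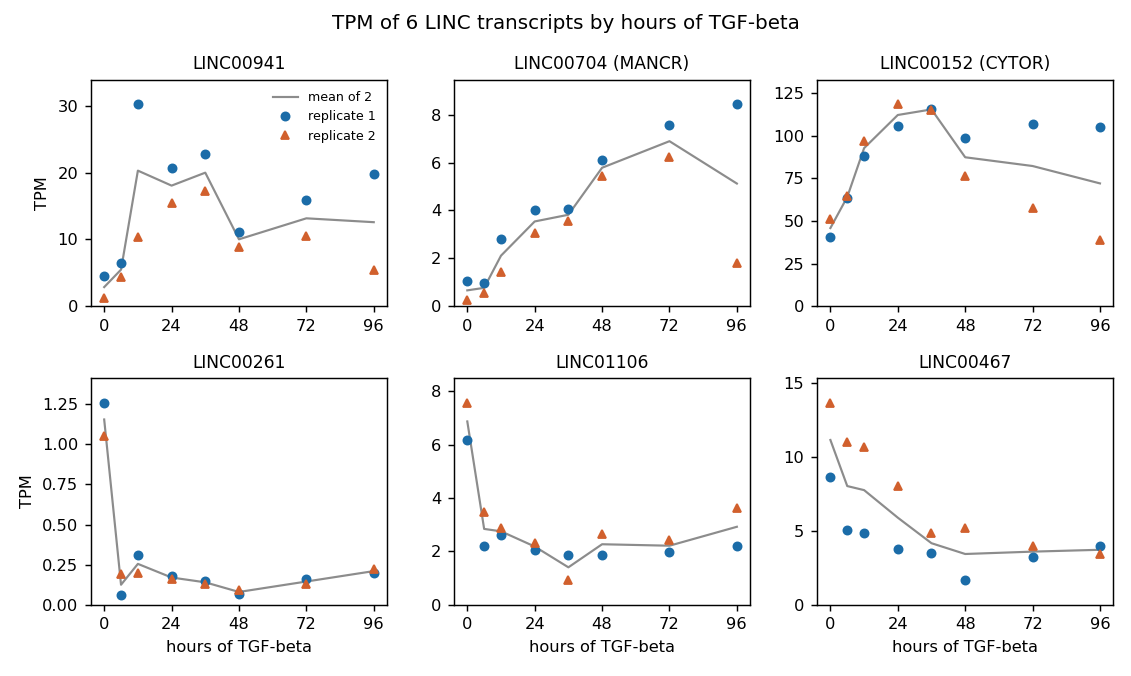
TPM of 6 members against hours of TGF-beta, with circles for replicate 1, triangles for replicate 2 and a line through the mean of both. LINC00941, LINC00704 and LINC00152 lie above 0 h at 24 to 72 h, and LINC00261 and LINC01106 lie below 0 h at all later times.

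Other members were higher in part of the course without a call in the main comparison. LINC00862 (chr1:200253419-200400705, minus strand) read 0.78 and 0.67 TPM at 0 h, 2.53 and 2.76 TPM at 24 h, 3.2 and 3.15 TPM at 48 h, then 3.95 and 0.59 TPM at 96 h. At 48 h the difference was 1.28 ± 0.49 (SE, limma adjusted p = 0.113, and 0.0388 with the block). LINC00312, studied in lung and nasopharyngeal tumours, was at 1.66 and 1.21 TPM at 0 h, then 10.56 and 2.76 TPM at 12 h. Its 96 h values were 4.37 and 0.21 TPM, on either side of 0 h. LINC00622 reached 3.5 and 1.06 TPM at 72 h, then 4.92 and 0.32 TPM at 96 h from 0.24 and 0.03 TPM at 0 h. Neither LINC00862 nor LINC00622 reached 1 TPM at 0 or 6 h, and both passed the threshold through later libraries alone. Their rises follow in part from how members were taken. LINC00623 was at 0.64 and 1.29 TPM at 0 h, then 3.15 and 4.69 TPM at 96 h (difference 1.33, limma adjusted p = 0.105), and LINC00313 at 3.33 and 3.66 TPM, against 5.32 and 5.75 TPM (difference 0.54, adjusted p = 0.611).

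LINC01137 was highest early in the course, and was the member called at 6 h under TMM scaling. It is now named ZC3H12A-DT and lies at chr1:37454879-37474411 on the minus strand. It read 4.38 and 4.88 TPM at 0 h, 9.28 and 10.54 TPM at 6 h, then 13.87 and 10.14 TPM at 12 h. At 24 h it was 7.68 and 9.89 TPM, at 48 h 6.8 and 5.04 TPM, at 72 h 7.64 and 6.74 TPM, and at 96 h 8.06 and 3.9 TPM. Both libraries of every time from 6 to 72 h were above both of 0 h. The difference was 0.95 ± 0.30 (SE) at 6 h and 1.19 ± 0.30 at 12 h (limma adjusted p = 0.307 and 0.122). With the block 12 h passed (0.0462), and with TMM scaling 6 h passed (0.0474). LINC01137, LINC00705 and LINC00632 are described because an alternative called them, which was seen in the data.

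Of the members that were lower, LINC00261 lies beside FOXA2 and is known from endoderm differentiation. LINC01106 and LINC01123 are copies on chromosome 2 that share much of their sequence. Their promoters are shown in the same way, the first for its neighbour and the others to let the copies be compared.
LINC00261, chr20:22578593-22578892, minus: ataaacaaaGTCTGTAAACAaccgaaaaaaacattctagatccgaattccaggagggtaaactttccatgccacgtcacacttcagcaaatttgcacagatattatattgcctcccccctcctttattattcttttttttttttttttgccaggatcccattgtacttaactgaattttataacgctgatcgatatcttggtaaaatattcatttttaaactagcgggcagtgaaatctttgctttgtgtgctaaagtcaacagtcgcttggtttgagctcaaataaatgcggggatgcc
LINC01106, chr2:110384487-110384786, minus: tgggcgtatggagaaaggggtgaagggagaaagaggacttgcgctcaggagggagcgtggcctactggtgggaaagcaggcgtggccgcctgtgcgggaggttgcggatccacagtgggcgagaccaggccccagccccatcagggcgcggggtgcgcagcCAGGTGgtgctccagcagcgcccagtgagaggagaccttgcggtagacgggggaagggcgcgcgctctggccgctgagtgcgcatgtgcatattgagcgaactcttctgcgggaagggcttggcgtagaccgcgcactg
LINC01123, chr2:109986730-109987029, plus: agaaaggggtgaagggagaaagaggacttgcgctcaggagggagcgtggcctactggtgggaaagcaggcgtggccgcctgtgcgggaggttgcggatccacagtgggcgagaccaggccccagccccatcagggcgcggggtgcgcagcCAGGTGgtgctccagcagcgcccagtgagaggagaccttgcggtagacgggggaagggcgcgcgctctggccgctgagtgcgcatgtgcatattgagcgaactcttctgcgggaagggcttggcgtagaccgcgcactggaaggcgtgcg
LINC00261 holds a SMAD element at -241 that overlaps a FOXA motif at -237. Position 12 onward of the LINC01106 sequence and position 1 onward of the LINC01123 sequence agree in 289 of 289 bases, with the same E-box at -89 and -100.

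LINC00261 (chr20:22547671-22578642, minus strand) read 1.26 and 1.05 TPM at 0 h, 0.06 and 0.19 TPM at 6 h, then 0.31 and 0.2 TPM at 12 h. From 24 h on its 10 libraries lay between 0.07 and 0.22 TPM. Every later library was below both of 0 h. It passed the threshold through the 0 h libraries alone, so its lower values afterwards follow from how members were taken and its calls support nothing. It was called lower at 36, 48 and 72 h (limma adjusted p = 0.0362, 0.0179 and 0.0347), with a log2 difference of -0.92 at 36 h. Leaving out 1 library ended these calls, apart from the one at 48 h without 48 h replicate 2 (limma adjusted p = 0.0405), and gave adjusted p up to 0.262, reached at 72 h without 72 h replicate 1.

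LINC01106 (chr2:110375138-110384442, minus strand) was at 6.17 and 7.58 TPM at 0 h, 2.2 and 3.49 TPM at 6 h, 2.62 and 2.89 TPM at 12 h, then 2.07 and 2.3 TPM at 24 h. It then read 1.87 and 0.94 TPM at 36 h, 1.87 and 2.67 TPM at 48 h, 1.99 and 2.44 TPM at 72 h, then 2.22 and 3.63 TPM at 96 h. The groups did not overlap, as all 14 later libraries were under both of 0 h. The fall was called at 36 h (log2 difference -1.73 ± 0.30, SE, limma adjusted p = 0.0107), 48 h (-1.27, 0.0265) and 72 h (-1.29, 0.0387). With the block 24 h passed as well (0.0206), and with TMM scaling the calls at 48 and 72 h were lost (limma adjusted p = 0.155 and 0.0797). The call at 36 h was lost without 0 h replicate 2 (limma adjusted p = 0.183) and without 36 h replicate 2 (0.144), and held without the other library of either time (0.0468 and 0.0244). Of the 4 omissions at 48 h, the call held without 48 h replicate 2 (0.0415) and was lost in the others (0.0915 to 0.24). At 72 h every omission of 1 library ended it (0.0946 to 0.382).

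LINC01123 (chr2:109987063-109996140, plus strand), its copy, read 2.28 and 2.99 TPM at 0 h, 2.64 and 1.31 TPM at 12 h, 0.92 and 0.85 TPM at 24 h, 0.56 and 0.42 TPM at 48 h, then 0.89 and 1.73 TPM at 96 h. Of the 14 later libraries 13 were below both of 0 h, the exception being 12 h replicate 1. The difference of -1.28 ± 0.30 (SE) at 48 h was called (limma adjusted p = 0.0281), and was lost under TMM scaling (0.0842) and without any 1 library of 0 or 48 h (0.0769 to 0.244). Of the 50-base words of LINC01106, 87.4% also occur in LINC01123, and of those of LINC01123, 68.8% occur in LINC01106. The division of reads between the copies, and with it each value, is therefore uncertain. The copies do not count as separate observations.

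LINC00857 (chr10:80207710-80219657, plus strand), studied as a growth-promoting RNA of lung adenocarcinoma, read 4.89 and 5.73 TPM at 0 h, 2.3 and 3.24 TPM at 6 h, then 5.44 and 3.39 TPM at 12 h. It was at 3.4 and 3.43 TPM at 24 h, 1.68 and 1.33 TPM at 48 h, then 3.05 and 2.31 TPM at 96 h. The 48 h libraries were its lowest, under all others. That difference, -1.33 ± 0.28 (SE), was called (limma adjusted p = 0.0182), with TMM scaling too (-0.93, 0.0184). Without any 1 library of 0 or 48 h the adjusted p was 0.0529 to 0.195. At 24 and 96 h the difference was -0.51 and -0.78 (limma adjusted p = 0.572 and 0.206).

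LINC00467 (chr1:211382803-211435333, plus strand), known as an RNA repressed by MYCN, went from 8.63 and 13.69 TPM at 0 h to 5.06 and 11.02 TPM at 6 h, then 4.87 and 10.66 TPM at 12 h. Later values were 3.77 and 8.03 TPM at 24 h, 3.49 and 4.85 TPM at 36 h, 1.69 and 5.19 TPM at 48 h, 3.22 and 3.98 TPM at 72 h, then 4.01 and 3.44 TPM at 96 h. All 10 libraries from 24 h on were below both of 0 h, and replicate 2 was above replicate 1 through 72 h. The largest difference was -1.54 ± 0.48 (SE) at 48 h (limma adjusted p = 0.067). With the block LINC00467 was called from 36 to 96 h (limma adjusted p = 0.0428, 0.0095, 0.0227 and 0.0313 in order of time).

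LINC00632 on the X chromosome, whose exons overlap the coding gene CDR1, read 0.73 and 2.91 TPM at 0 h and 0.13 in both libraries at 96 h. All libraries of 36 h and later were under both of 0 h. LINC00632 reached 1 TPM in libraries of 0 and 6 h alone, so its lower values later follow in part from how members were taken. At 96 h the difference was -1.20 (limma adjusted p = 0.197, and 0.0331 with the block). CDR1 itself read 0.66 and 3.42 TPM at 0 h, then 0.52 and 0.05 TPM at 96 h. LINC00478, the host of the miR-99a cluster, read 2.24 and 2.34 TPM at 0 h, then 1.64 and 0.39 TPM at 96 h (difference -0.78, limma adjusted p = 0.269). LINC00472 read 11.11 and 14.06 TPM, against 6.29 and 7.64 TPM (difference -0.77, adjusted p = 0.526).

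LINC00473 was low at 6 h in both replicates. It read 44.5 and 62.73 TPM at 0 h, 8.35 and 12.45 TPM at 6 h, then 56.81 and 19.13 TPM at 12 h. Its later libraries lay between 10.44 TPM (48 h replicate 1) and 43.2 TPM (72 h replicate 2). Of the 14 later libraries 13 were below both of 0 h, 12 h replicate 1 being the exception. The difference at 6 h was -2.26 ± 0.54 (SE, limma adjusted p = 0.198), and -1.76 under TMM scaling (0.0712), where it was called with the block added. LINC01021, the p53-induced PURPL, was also low at 6 h. It read 23.37 and 24.97 TPM at 0 h, then 6.4 and 10.83 TPM at 6 h (difference -1.43, limma adjusted p = 0.328). Unlike LINC00473, LINC01021 was above both 0 h libraries at 72 h, with 27.95 and 27.85 TPM. It was singled out after its values were seen.

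Members studied before in lung cancer or in epithelial to mesenchymal transition numbered 10, out of 17 listed and 14 present in the tables. Beside LINC00941, LINC00261, LINC00312 and LINC00472 these were LINC00511, LINC00520, LINC00665, LINC00707, LINC00963 and LINC01116, and none of these 6 was called at any time by limma. LINC00511 ranged from 11.43 to 33.55 TPM and LINC00963 from 7.49 to 17.34 TPM. LINC01116 ranged from 2.93 to 8.65 TPM, LINC00707 from 0.54 to 7.22 TPM, LINC00665 from 0.4 to 2.68 TPM and LINC00520 from 0.16 to 1.49 TPM. LINC00460 and LINC01133 were no members, with second highest libraries of 0.49 and 0.25 TPM.

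Some members share a start region with a coding gene, and 11 lay head to head with one within 1000 bases in GENCODE v29. LINC00941 starts 216 bases from CAPRIN2, an RNA-binding protein gene, in that annotation, whereas its RefSeq start, whose promoter is printed above, lies 40514 bases further on. CAPRIN2 read 12.94 and 13.06 TPM at 0 h, 15.27 and 14.6 TPM at 6 h, 48.43 and 23.71 TPM at 12 h, then 37.27 and 36.43 TPM at 36 h. At 96 h it was at 41.46 and 14.09 TPM. Like LINC00941 it was above 0 h in every library from 12 h on. Its difference at 36 h was 1.43 (limma adjusted p = 0.118, and 0.0285 with the block). ZC3H12A, the ribonuclease gene 141 bases from LINC01137, read 5.74 and 5.62 TPM at 0 h, 7.86 and 7.24 TPM at 6 h, then 17.15 and 7.84 TPM at 12 h, and was not called at any time (lowest limma adjusted p 0.411).

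FOXA2, a transcription factor of endodermal epithelia 2363 bases from LINC00261, read 9.73 and 8.91 TPM at 0 h, 1.91 and 2.1 TPM at 6 h, 5.73 and 2.27 TPM at 12 h, then 3.46 and 1.45 TPM at 36 h. At 96 h it was at 4.41 and 5.44 TPM. It was below 0 h in all later libraries. Its difference was called at 36 h (-1.64, limma adjusted p = 0.0439) and 48 h (-1.68, 0.0246), and with the block at 24 h too (0.0135). LINC00261 stayed at 0.2 and 0.22 TPM at 96 h. FOXA2 is the nearest coding gene of LINC00261 but not a head-to-head partner. Of the head-to-head partners, ATP2B1, a calcium pump gene beside LINC00936, was called lower at 36 h (-1.16, limma adjusted p = 0.0309) and 48 h (-1.20, 0.0187). ATP2B1 read 64.95 and 69.77 TPM at 0 h, then 26.32 and 31.48 TPM at 48 h. LINC00936 was at 1.4 and 1.15 TPM at 0 h and at 0.45 in both libraries at 48 h, and it shares exon bases with ATP2B1. No further head-to-head partner was called without the block.

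**Figure D4:**
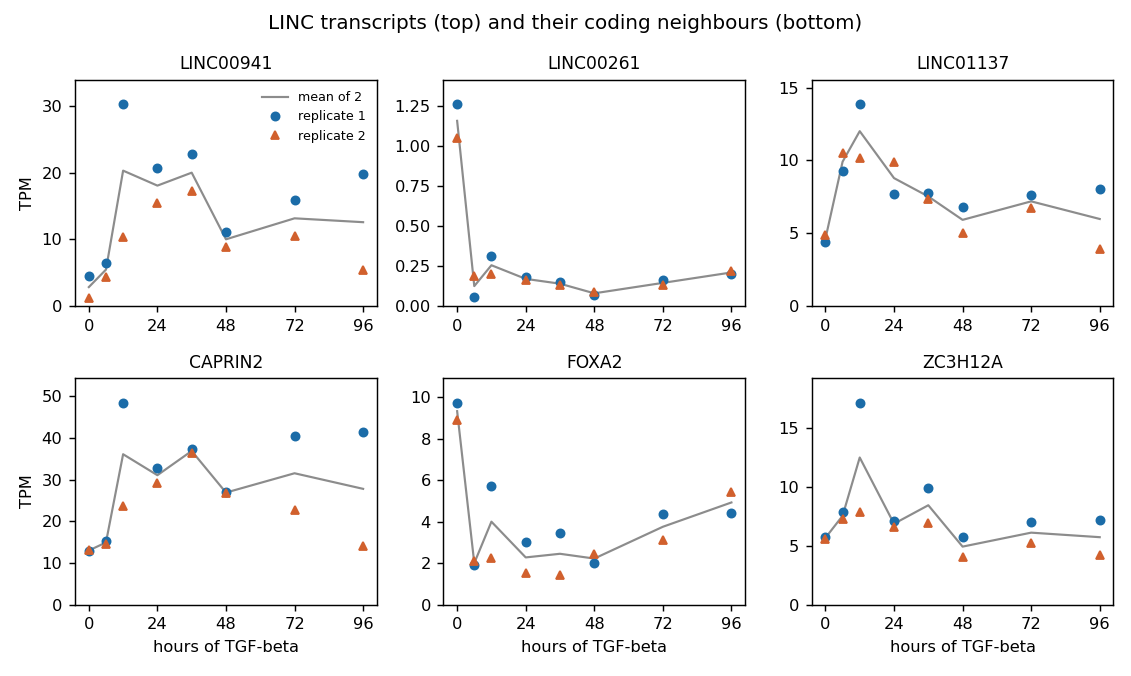
TPM of 3 members (top row) and the coding gene beside each (bottom row) against hours of TGF-beta, with circles for replicate 1, triangles for replicate 2 and a line through the mean. CAPRIN2 and LINC00941 lie above 0 h in every library from 12 h on, FOXA2 and LINC00261 lie below 0 h in every later library, and 12 h replicate 1 stands above its partner in all 3 coding genes.

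The replicate series also differed in ways that time did not explain. Of the 102 members 7 stood on the same side in 1 replicate at all 8 times, and 8.11% of genes did. Higher in replicate 1 were LINC00338, LINC00622, LINC00662, LINC00704, LINC00843 and LINC00941, and higher in replicate 2 was LINC00493. LINC00338, now SNHG20, a host of small nucleolar RNAs, ran from 15.72 to 29.04 TPM in replicate 1 and from 4.88 to 11.44 TPM in replicate 2, with no overlap. LINC00493 (SMIM26) ran from 41.36 to 78.67 TPM and from 81.83 to 113.94 TPM. LINC00662 ran from 13.98 to 45.94 TPM in replicate 1 and from 12.11 to 19.67 TPM in replicate 2. SNHG20 shares exon bases with SEC14L1. What the replicate number marks is not given by the labels.

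**Figure D5:**
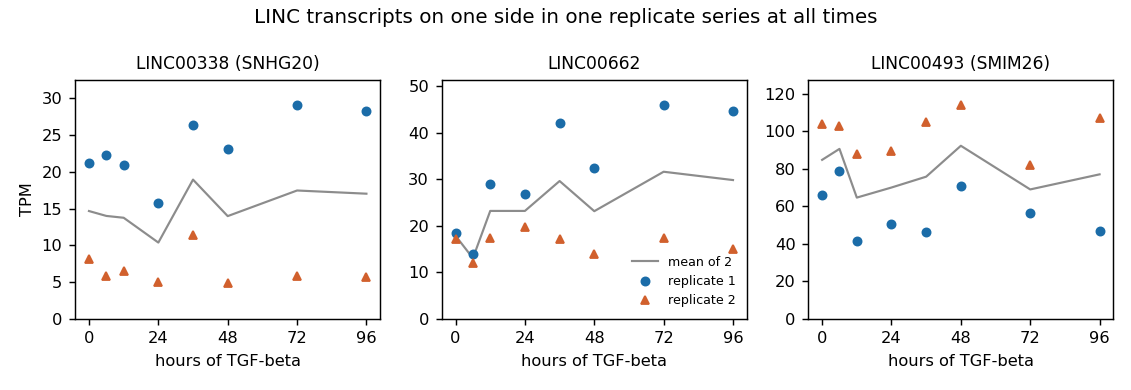
TPM of LINC00338, LINC00662 and LINC00493 against hours of TGF-beta, with circles for replicate 1, triangles for replicate 2 and a line through the mean. Replicate 1 is above replicate 2 at all 8 times for LINC00338 and LINC00662 and below it for LINC00493.

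Long non-coding RNAs with other names give the context. Of 38 such genes listed, 36 were in the tables and 31 passed the same threshold. MEG3, an imprinted RNA of the DLK1 locus, was called higher at 24 h and later. It read 4.66 and 4.52 TPM at 0 h, 49.33 and 48.73 TPM at 36 h, then 61.06 and 23.9 TPM at 96 h (log2 difference 3.16 ± 0.49, SE, at 36 h, limma adjusted p = 0.0071). MIR31HG, the host of miR-31, read 3.73 and 6.3 TPM at 0 h, then 30.65 and 38.75 TPM at 72 h (2.59, limma adjusted p = 0.0035). MIAT was called higher and the imprinted H19 lower at 36, 48, 72 and 96 h. MIAT read 0.74 and 0.9 TPM at 0 h, then 3.74 and 2.96 TPM at 96 h. It passed the threshold through libraries of 12 h and later alone. H19 read 1.73 and 2.34 TPM at 0 h, then 0.11 and 0.16 TPM at 96 h. It reached 1 TPM in libraries of 0 to 24 h alone. The calls of MIAT and H19 therefore follow in part from the threshold. OIP5-AS1 was called lower at 48 h alone. Under TMM scaling the 48 h calls of H19 and OIP5-AS1 were lost (limma adjusted p = 0.0595 and 0.434), and MIR22HG was called higher at 24, 36 and 48 h. No gene of this list was called at 6 or 12 h with limma on the deposited values. At 12 h the block called MEG3 and MIR31HG higher (limma adjusted p = 0.0177 and 0.0221) and TMM scaling called MEG3 (0.0119).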

How the data were processed

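RNA from 16 A549 libraries (8 times, 2 replicates) was taken up in Trizol and, per the labels' protocols, sequenced from TruSeq RNA libraries (Illumina). The authors deposited TPM values per gene in 2 tables, 1 per replicate. Bowtie and RSEM were used, per the submitters' processing notes. Versions, genome build, annotation and strand setting: not given in the sources used here. Read counts are not in use here, so depth is unknown. 0 value columns were left unmapped.

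Genes reaching 1 TPM in 2 or more libraries (16967 of 57773) were fitted on log2(TPM + 1) with limma 3.58.1 in R 4.3.3, with 1 mean per time, a mean trend in the variance and Benjamini-Hochberg adjustment over all genes tested, two-sided. All 8 times share 1 estimate of the spread. The members and the gene lists were chosen with earlier results of these data known. Named members are the 10 most abundant, those called (up to 5 a direction), the 5 largest non-overlapping differences in each direction at 24 and 96 h among means of at least 2 TPM, listed microprotein and lung cancer members, and the nearest coding genes. Alternatives were the replicate block, TMM scaling (a trimmed mean computed on the TPM values), both, a pseudocount of 0.1, no filter on low values, each library left out, and 36 h and 48 h replicate 2 left out together, since these list 36116 and 36294 genes at 0 against 29278 to 31187 in the others. Deviations from the time means of same-numbered libraries correlated over 0.1 at 28 of 28 pairs of times (lowest 0.128, median 0.438, and with TMM 27 of 28). The main fit has no replicate term, and the numbers pair the libraries only in the fits with the block. No 2 libraries held identical values. The model was tested on simulated data for 48 h against 0 h over 16967 genes, of which 200 were changed. It recovered 83.7% of those changed by 2 and 97.1% of those changed by 3 on the log2 scale, with 10 false calls. The changed genes were drawn from those with a mean log2(TPM + 1) above 3, whereas the median of the members' means was 2.48 TPM. No deviation shared by replicate number was simulated. These shares therefore do not give the power for members at low levels. Python 3.11.15 with pandas 2.3.3 and matplotlib 3.10.9 did the rest.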

Additional observations from a re-analysis of the deposited data

How the results depend on the processing

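The directions of all 31 named member differences held under every alternative run, but few calls did. The libraries compared did not overlap in any of these 31, mostly because they were chosen so. Only the fits with TMM scaling could therefore have reversed a direction, and the other alternatives do not test it. Leaving out a library ended a call in 40 fits and gained one in 3. Leaving out each library, or 36 h and 48 h replicate 2 together, the members called ranged from 0 to 1 at 36 h (main 3), 0 to 5 at 48 h (main 5), 0 to 2 at 72 h (main 3, with 0 for each single library and 2 for the pair), 0 to 3 at 96 h (main 0), 0 to 5 over the whole course (main 0) and 0 to 1 for late against middle (main 0). Leaving out 1 library leaves a time with a lone sample, assumed to vary like the others.

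With the replicate block the members called numbered 2, 4, 6, 9, 7 and 5 at 12, 24, 36, 48, 72 and 96 h, with 3 over the whole course; it added 6 named calls, lost none and changed no other. TMM scaling gave 1, 1, 3, 5, 6, 4 and 1 at 6, 12, 24, 36, 48, 72 and 96 h, with 1 over the whole course. Scaling with the replicate block gave 3, 3, 7, 7, 12, 9 and 5 at the 7 later times in order, 7 over the whole course and 2 for middle against early. Without the filter on low values it was 1 at 6, 12, 24, 72 and 96 h and over the whole course, and 3 at 48 h. A pseudocount of 0.1 gave 1 at 72 h. Without 36 h and 48 h replicate 2 together, 0 were called at 36 h and 1 at 48 h. Counts of the fits without the filter, with this pseudocount and without both libraries are not listed for every comparison. An unlisted comparison need not be one without calls. For the fits without the filter, with the pseudocount of 0.1 and without both libraries, the share of all genes called is not given here. Their counts therefore cannot be set against a background. TPM tables without counts limit what can be said of members near 1 TPM.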

Other observations

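The listed long non-coding RNAs include 11 hosts of small nucleolar RNAs outside the LINC names (the 9 named SNHG, GAS5 and ZFAS1), and these differed in how they stood between the replicate series. Replicate 1 was above replicate 2 at all 8 times in 2 of them and at 6 or 7 times in 7, while ZFAS1 was split 4 to 4 and SNHG6 was higher in replicate 2 at 6 times. Over all genes tested, 8.11% stood on 1 side at all 8 times, 888 higher in replicate 1 and 488 in replicate 2. No such share was computed for 6 or 7 times or for ranges apart, so a lean particular to the hosts is not shown. The ranges of the replicates were apart in SNHG3 alone, as in LINC00338 (SNHG20). SNHG3 read from 677.05 to 1367.8 TPM in replicate 1 and from 182.94 to 248.47 TPM in replicate 2. SNHG7 read from 27.28 to 67.94 TPM in replicate 1 and from 19.82 to 30.97 TPM in replicate 2, and these are the hosts with replicate 1 above replicate 2 at all 8 times. GAS5, a growth-arrest RNA that also hosts small nucleolar RNAs, read 604.41 and 639.17 TPM in replicate 1 at 48 and 72 h, where replicate 2 read 181.29 and 170.08 TPM, and 118.06 against 138.52 TPM at 6 h. ZFAS1 read 311.42 and 282.79 TPM there, and replicate 2 read 120.53 and 91.89 TPM. At 0 h the replicates of ZFAS1 were at 99.76 and 107.55 TPM. The hosts given with values were picked from the list after these were seen, and what sets the replicate series apart was not tested.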
